A study of Mus musculus with 24 samples.

Results

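The genes described here are 10 that govern the step from G1 into S phase, read across all 8 RNA-seq libraries. They are the cyclin-dependent kinase (CDK) inhibitors Cdkn1a, Cdkn1b, Cdkn2c and Cdkn2d, the pocket protein genes Rb1, Rbl1 and Rbl2, and the D-type cyclins Ccnd1, Ccnd2 and Ccnd3. They were taken by symbol from the deposited gene table, which has 24043 rows, and all 10 were among the 12389 genes that passed the filter on low values and were tested. The cells were C2C12, an established line of mouse myoblasts, which are muscle precursor cells that divide in rich serum and fuse into myotubes when serum is withdrawn. The 4 groups were growth medium with 10% fetal bovine serum at 21% oxygen (GM_NOR), growth medium at 2% oxygen (GM_HYP), differentiation medium with 2% horse serum and an insulin, transferrin and selenium supplement at 21% oxygen (DM_NOR), and differentiation medium at 2% oxygen (DM_HYP). Each group had a replicate A and a replicate B, and all cells were of the same unmodified line. The time in hypoxia and the day of harvest are not given in the sources used here. Chromatin libraries of the same series were not analysed here.

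A muscle precursor must leave the cell cycle before it can fuse and build a contractile apparatus, and this exit is normally permanent. D-type cyclins bind CDK4 and CDK6, and the active kinases phosphorylate the retinoblastoma protein and its relatives, the pocket proteins, which then release E2F factors to switch on genes for DNA replication. Inhibitors of the Cip/Kip family (p21 from Cdkn1a, p27 from Cdkn1b) bind cyclin-CDK complexes broadly, whereas those of the INK4 family (p18 from Cdkn2c, p19 from Cdkn2d) bind CDK4 and CDK6. In differentiating myoblasts p21 and the retinoblastoma protein are known for their rise and for holding the exit.

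Levels are in FPKM, fragment counts scaled by transcript length and by library size. Relative depth ran from 0.633 in DM_HYP B to 1 in DM_HYP A, so the shallowest and deepest library shared a group. Libraries had 14917 to 15672 genes above 0, and the absolute depth is unknown. The label of muscle cells was checked with 10 muscle markers, whose summed level was 7067 and 7069 FPKM in DM_NOR A and B, 448 and 370 in GM_NOR, 99.6 and 108 in GM_HYP, and 64.5 and 85.6 in DM_HYP. Myog, the myogenin gene, was at 2576 and 2642 FPKM in DM_NOR and at 4.49 and 2.14 in DM_HYP, so both hypoxic libraries in differentiation medium were far below the normoxic ones. From GM_HYP to DM_HYP 5 of the 10 markers rose and 1 fell by the limma test described below, beside 23.3% and 17.6% of all genes. Des, the largest part of the sum in these groups, was at 60.3 and 66.4 FPKM in GM_HYP and 28.6 and 53.1 in DM_HYP. The mean of log2(FPKM + 1) over the 10 markers went from 1.81 and 1.91 to 2.27 and 2.07. Markers of other cell types were mixed. The 6 adipocyte markers summed to 3.54 to 25 FPKM, with Plin1 and Lep at 0 throughout and Cebpa at 19.1 and 17.2 in GM_NOR. The 7 bone and cartilage markers summed to 25.7 to 113 FPKM. Among them Ibsp and Acan were at or near 0 and Runx2 and Sox9 between 5.77 and 26.5, while Bglap, which codes for osteocalcin, was 93.1 and 75.5 in DM_NOR and at most 6.66 elsewhere. The 6 blood and endothelial markers summed to 1.8 to 42.9 FPKM, with Hbb-b1 at 0, Ptprc at or near 0, and Cd68 at 25.8 and 42.8 in DM_HYP and at most 3.57 elsewhere. The part of these markers in the results was not tested.

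The replicates of DM_HYP stood apart from each other, and every value of that group is therefore given for A and for B. Replicates differed by more than 2-fold, on the FPKM + 1 scale, in 613 of 12389 genes in DM_HYP (4.95%), against 71 in GM_NOR, 56 in GM_HYP and 61 in DM_NOR. The 8 proliferation markers (such as Cdk1, Top2a and Ccnb2) summed to 33.7 FPKM in DM_HYP A and to 203 in DM_HYP B. The other groups were at 230 and 248 in GM_NOR, 130 and 114 in GM_HYP, and 37.7 and 37.2 in DM_NOR. DM_HYP A was thus at the level of normoxic differentiated cells for these genes and DM_HYP B near that of growing cells. The part of this difference in the results below was not tested. In such bulk libraries, fewer cells of a kind and less RNA per cell cannot be told apart.

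**Figure D1:**
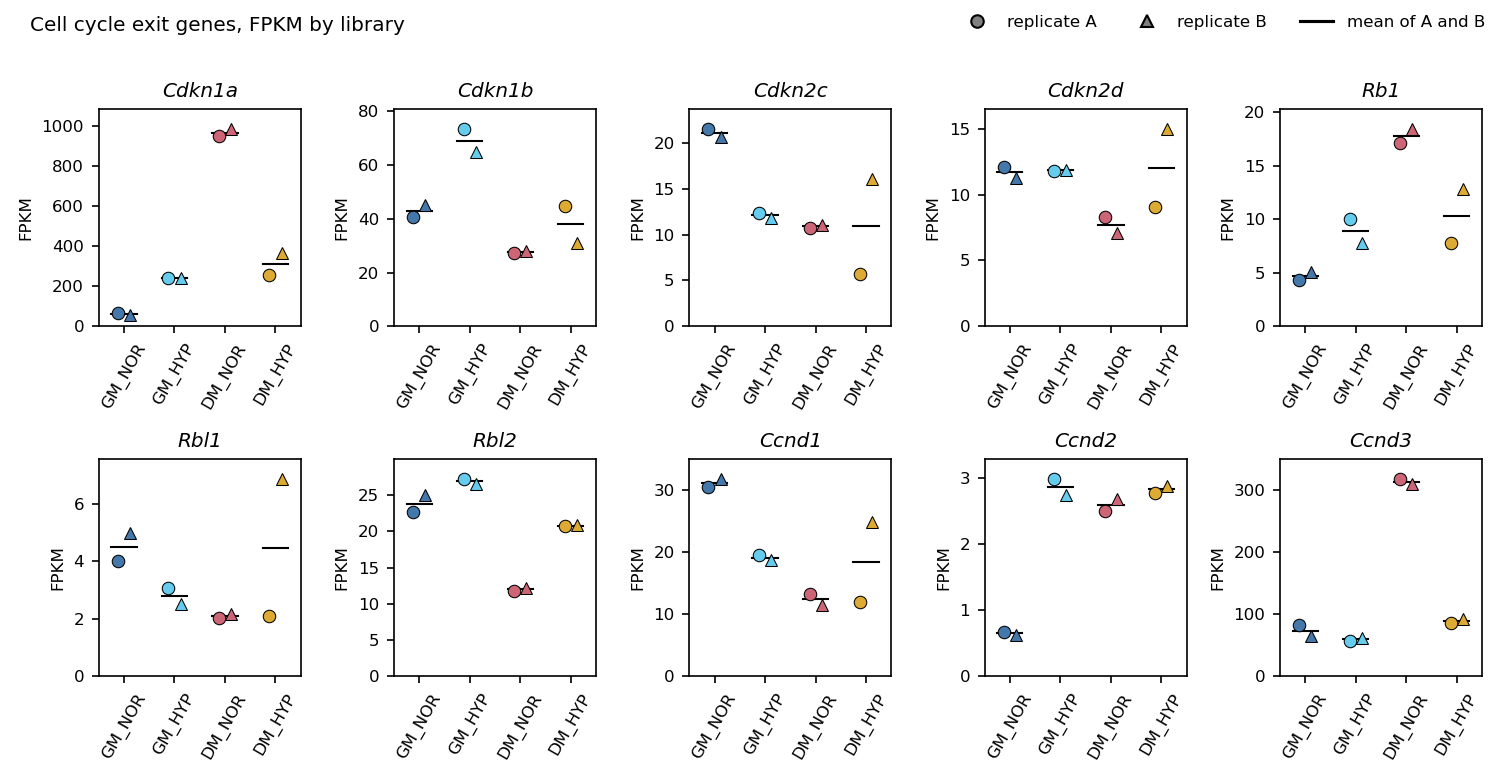
FPKM (vertical axis of each panel, starting at 0) of the 10 genes in each library, by group; circles are replicate A, triangles replicate B and bars the mean of both. Cdkn1a, Rb1 and Ccnd3 peak in DM_NOR, and the 2 symbols of DM_HYP lie far apart for Rbl1, Cdkn2c and Ccnd1.

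Changes were fitted with limma on log2(FPKM + 1) over the 8 libraries, with two-sided tests and Benjamini-Hochberg adjusted p-values over all 12389 genes, and are given as log2 change ± SE. On differentiation in normoxia (DM_NOR against GM_NOR), 4 of the 10 genes rose (Cdkn1a, Rb1, Ccnd2 and Ccnd3) and 3 fell (Cdkn1b, Rbl2 and Ccnd1) at an adjusted p under 0.05. Over all genes 25.5% were called higher and 41.0% lower. On differentiation in hypoxia (DM_HYP against GM_HYP), Ccnd3 rose and Cdkn1b and Rbl2 fell, where 23.3% of all genes were called higher and 17.6% lower. These 2 comparisons share no library. The count of 3 in hypoxia fell without GM_HYP A or GM_HYP B and rose without DM_HYP A or DM_HYP B. Both shares of all genes called fell without either GM_HYP library and rose without DM_HYP A. Without DM_HYP B the share called higher fell and the share called lower rose.

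Hypoxia in growth medium (GM_HYP against GM_NOR) raised Cdkn1a, Cdkn1b, Rb1 and Ccnd2 by the same limma test, beside 13.5% of all genes called higher. None of the 10 was called lower, with 1 lower at an unadjusted p under 0.05 (Ccnd3), beside 28.0% of all genes called lower. More of the 10 genes were called with DM_HYP A or DM_HYP B left out, and fewer with any other library left out. Both shares of all genes moved in the same directions. Hypoxia in differentiation medium (DM_HYP against DM_NOR) lowered Cdkn1a, Rb1 and Ccnd3 and raised Rbl2, beside 27.7% of all genes called lower and 37.5% called higher. That count of 4 rose without DM_HYP A or DM_HYP B and fell without DM_NOR A or DM_NOR B. Over all genes the share called higher rose without DM_HYP A and fell without DM_HYP B, and the share called lower did the reverse. Both shares fell without DM_NOR A or DM_NOR B. The counts were not tested against these background shares.

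The split of calls over all genes moved with the scaling between libraries. Of all calls, 38.4% were higher on differentiation in normoxia, and 53.2% after median-of-ratios scaling. For hypoxia in growth medium 32.6% were higher, against 43.2% after median-of-ratios and 49.1% after upper-quartile scaling. For hypoxia in differentiation medium the share was 57.5%, and 46.7% after median-of-ratios scaling. The median change of all tested genes was -0.20, 0.07, -0.14 and 0.15 in the order the comparisons were introduced, and 0.02, 0.03, -0.04 and -0.02 after median-of-ratios scaling. Among the 10 genes a single direction turned with the scaling, that of Ccnd2 for hypoxia in differentiation medium, which was not called in either case.

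**Figure D2:**
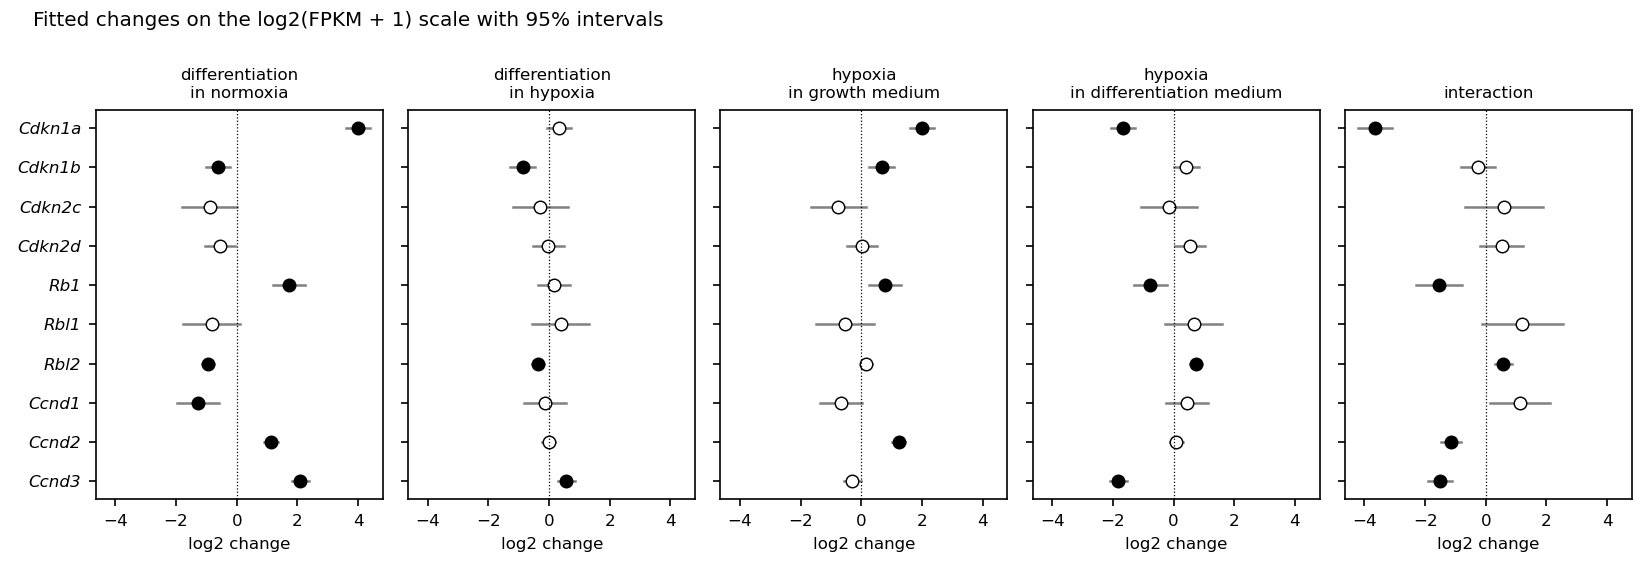
Fitted change on the log2(FPKM + 1) scale (horizontal axis) of each gene in the 5 comparisons, with 95% intervals; filled symbols have an adjusted p under 0.05 and open ones do not. The change of Cdkn1a is 3.99 on differentiation in normoxia and 0.34 in hypoxia, and the widest intervals are those of Rbl1 and Cdkn2c.

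Cdkn1a had the largest fitted change of the 10 genes on differentiation in normoxia. It was at 64.4 and 55.3 FPKM in GM_NOR, 947 and 984 in DM_NOR, 242 and 241 in GM_HYP, and 257 and 364 in DM_HYP A and B. The normoxic differentiated libraries were far above all others, both hypoxic groups lay between, and no groups overlapped. The group mean was 16.1-fold higher in DM_NOR than in GM_NOR (3.99 ± 0.16, adjusted p 3.63e-06), and Cdkn1a ranked 74th and 71st from the top of all genes in DM_NOR A and B. Hypoxia raised it 4.04-fold in growth medium (2.00 ± 0.16, adjusted p 0.000267) and lowered it in differentiation medium (-1.66 ± 0.16, adjusted p 0.00016), where DM_NOR was 3.11-fold above DM_HYP. Hypoxic cells thus already held 242 FPKM in growth medium, and differentiation medium added 0.34 ± 0.16 on the log2 scale, with a 95% interval of -0.05 to 0.73 (adjusted p 0.145). Without DM_HYP A this change was 0.59 and passed the test (adjusted p 0.00549). The differentiation change was 3.65 ± 0.23 lower in hypoxia than in normoxia, by the test of the difference itself (adjusted p 5.18e-05).

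The sequences upstream of Cdkn1a and Ccnd3 are shown because these genes shared a pattern in which DM_NOR stood far above all other groups. RefSeq (GRCm38.p6) gives 2 starts for Cdkn1a, both on the plus strand of chromosome 17. The lines below hold the 250 bases before each start, at chr17:29090729-29090978 and chr17:29093519-29093768, with capitals for the motif matches found on either strand.
Cdkn1a, start 1: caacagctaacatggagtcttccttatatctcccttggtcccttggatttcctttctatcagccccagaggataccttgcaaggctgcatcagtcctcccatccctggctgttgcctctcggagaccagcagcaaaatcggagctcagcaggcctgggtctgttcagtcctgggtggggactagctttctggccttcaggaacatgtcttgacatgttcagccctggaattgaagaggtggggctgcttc
Cdkn1a, start 2: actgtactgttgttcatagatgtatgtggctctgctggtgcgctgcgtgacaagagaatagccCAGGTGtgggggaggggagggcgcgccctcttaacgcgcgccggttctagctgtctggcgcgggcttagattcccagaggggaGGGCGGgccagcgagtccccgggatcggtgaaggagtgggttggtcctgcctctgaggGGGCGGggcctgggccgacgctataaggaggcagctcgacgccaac
The motifs searched were the E-box CANNTG, which muscle factors of the MyoD family can bind, the GC box GGGCGG, the hypoxia response core ACGTG, and 4 spellings of the E2F site (TTTCCCGC, TTTCGCGC, TTTGCCGC and TTTGGCGC). A site for the tumour suppressor p53, treated below, was not among the motifs searched. Start 1 of Cdkn1a held none of these spellings. Start 2 held a CAGGTG 187 bases before it and a GC box 104 and 46 bases before it. Of 32851 windows of the same length in the table, 66.2% held an E-box, 32.7% a GC box, 16.6% the hypoxia core and 1.86% an E2F spelling. The submitters' processing notes name the build mm9, so these GRCm38 coordinates do not apply to the deposited values.

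Cdkn1b, which codes for p27, moved against Cdkn1a on differentiation in normoxia. It was at 40.7 and 45.1 FPKM in GM_NOR, 27.4 and 27.9 in DM_NOR, 73.4 and 64.8 in GM_HYP, and 44.9 and 30.9 in DM_HYP A and B. GM_HYP was above every other library and DM_NOR below every other. Cdkn1b was 1.55-fold higher in GM_NOR than in DM_NOR (-0.62 ± 0.17, adjusted p 0.0166) and 1.82-fold higher in GM_HYP than in DM_HYP (-0.87 ± 0.17, adjusted p 0.0082). Hypoxia raised it 1.61-fold in growth medium (0.67 ± 0.17, adjusted p 0.0194). In differentiation medium the 1.37-fold difference did not pass (0.42 ± 0.17, adjusted p 0.0663), but did without DM_HYP B (0.68, adjusted p 0.00186). Cdkn1b was also the single gene of the 10 that was lower in DM_HYP B than in DM_HYP A.

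Each call for Cdkn1b was lost under some alternative. The fall in normoxia did not pass with median-of-ratios scaling (-0.35, p 0.181 after adjustment) or upper-quartile scaling (-0.49 and 0.0795), nor without GM_NOR B, DM_NOR A or DM_NOR B (adjusted p 0.0878, 0.0818 and 0.0744). The fall in hypoxia was lost without GM_HYP A (adjusted p 0.0601) and in a fit of the GM_HYP and DM_HYP libraries by themselves (adjusted p 0.0602), and the rise in hypoxic growth medium without any of GM_NOR A, GM_NOR B, GM_HYP A and GM_HYP B (adjusted p 0.104, 0.0534, 0.115 and 0.0585).

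Between these Cip/Kip genes the balance moved to Cdkn1a. Cdkn1a made up 61.3% and 55.1% of their summed FPKM in GM_NOR, 76.7% and 78.8% in GM_HYP, 97.2% in both DM_NOR libraries, and 85.1% and 92.2% in DM_HYP. The third Cip/Kip gene, Cdkn1c, which was not in this sum, codes for p57, an inhibitor also active in muscle. It was at 9.45 and 10.4 FPKM in GM_NOR, 88 and 105 in DM_NOR, 2.42 and 2.75 in GM_HYP, and 9.18 and 3.48 in DM_HYP. Cdkn1c rose on differentiation in normoxia (3.16 ± 0.35, adjusted p 0.000248) and was lower in DM_HYP than in DM_NOR (-3.85 ± 0.35, adjusted p 0.000102). Unlike Cdkn1a it fell with hypoxia in growth medium (-1.61 ± 0.35, adjusted p 0.0107), a call lost without GM_NOR A, GM_NOR B, GM_HYP A or GM_HYP B (adjusted p 0.0533, 0.0575, 0.0655 and 0.0518).

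Genes of p27 degradation are given beside Cdkn1b, although they act on p27 protein, which was not measured, and the levels here are RNA. The SCF complex that marks p27 for the proteasome holds Skp1a, Cul1, Rbx1 and the receptor Skp2 with its cofactor Cks1b, and Fbxw7, a receptor for cyclin E, was listed with them. Of these 6 genes 4 fell and 2 rose on differentiation in normoxia, where Cdkn1b fell, beside 41.0% and 25.5% of all genes. On differentiation in hypoxia, where Cdkn1b also fell, 4 rose and 0 fell, beside 23.3% and 17.6% of all genes. With hypoxia in differentiation medium 1 rose and 1 fell, beside 37.5% and 27.7% of all genes. A link to the level of Cdkn1b was not tested. With hypoxia in growth medium, where Cdkn1b rose, 4 fell and none rose (0 higher at an unadjusted p under 0.05), beside 28.0% and 13.5% of all genes. Their median change in that comparison was -0.62, beside -0.14 for all genes. Rbx1 fell by 0.55 ± 0.07 (adjusted p 0.00153) and Skp1a fell by 0.77 ± 0.07 (adjusted p 0.000399). Skp2 was chosen after its values were seen. It was at 10.6 and 11.3 FPKM in GM_NOR, 2.73 and 3.15 in DM_NOR, 3.4 and 2.74 in GM_HYP, and 3.61 and 10.3 in DM_HYP A and B. GM_NOR and DM_HYP B were high, and the other 5 libraries low. Cks1b fell on differentiation in normoxia (-1.61 ± 0.31, adjusted p 0.00353), with 32.3 and 69.7 FPKM in DM_HYP A and B.

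Cdkn1a is a classical target of the tumour suppressor p53, so p53 (Trp53) and 14 further targets were listed. With hypoxia in growth medium 10 of these 15 genes rose and 2 fell, beside 13.5% and 28.0% of all genes. Their median change was 1.01 beside -0.14 for all genes. Both counts fell without GM_HYP A, as did both shares of all genes. On differentiation in normoxia 6 rose and 2 fell, beside 25.5% and 41.0% of all genes. With hypoxia in differentiation medium, where Cdkn1a fell, 7 rose and 1 fell, beside 37.5% and 27.7% of all genes. The median change of the list there was 0.08 beside 0.15 for all genes. Phlda3, an inhibitor of Akt signalling, was at 102 and 91.9 FPKM in GM_NOR and at 184 and 196 in GM_HYP (0.97 ± 0.17, adjusted p 0.00493). Gdf15, a stress-induced secreted factor, rose from 3.32 and 3.05 FPKM in GM_NOR to 32.4 and 31.8 in GM_HYP (2.98 ± 0.53, adjusted p 0.00509) and to 103 and 107 in DM_NOR (4.66 ± 0.53, adjusted p 0.000295). Bax, which promotes cell death at mitochondria, was at 116 and 102 FPKM in GM_NOR, 155 and 154 in GM_HYP, 88 and 86 in DM_NOR, and 189 and 234 in DM_HYP. It was higher in DM_HYP than in DM_NOR (1.27 ± 0.12, adjusted p 0.000115), and its rise with hypoxia in growth medium (0.51 ± 0.12, adjusted p 0.0141) was lost without GM_NOR B, GM_HYP A or GM_HYP B (adjusted p 0.0696, 0.0762 and 0.0736). Trp53 itself was at 89 and 72.8 FPKM in GM_NOR and 34.9 and 37.2 in GM_HYP (-1.14 ± 0.28, adjusted p 0.0179), a call lost without GM_NOR A, GM_HYP A or GM_HYP B (adjusted p 0.104, 0.0933 and 0.0749). In DM_HYP the list summed to 650 FPKM in A and 1155 in B. On differentiation in hypoxia 1 of the list rose and 2 fell, beside 23.3% and 17.6% of all genes. More of the list were called higher without DM_HYP A, as over all genes, and more in each direction without DM_HYP B. Fewer were called without DM_NOR A, DM_NOR B, GM_HYP A or GM_HYP B, where both shares of all genes fell too.

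Neither INK4 gene changed at an adjusted p under 0.05 in limma's test, while Cdkn2d passed an unadjusted p of 0.05 in 2 comparisons. Cdkn2c was at 21.5 and 20.7 FPKM in GM_NOR, 12.4 and 11.8 in GM_HYP, 10.7 and 11.1 in DM_NOR, and 5.69 and 16.1 in DM_HYP A and B. GM_NOR was above all other libraries, and the DM_HYP libraries enclosed both GM_HYP and DM_NOR. Its change was -0.89 ± 0.38 on differentiation in normoxia (adjusted p 0.0759) and -0.75 ± 0.38 with hypoxia in growth medium (adjusted p 0.158). The SE carries the spread of the DM_HYP pair. In fits of the compared libraries by themselves both changes passed (adjusted p 0.000452 and 0.00345), as they did without DM_HYP A (6.43e-05 and 0.000355) or DM_HYP B (7.08e-05 and 0.000387). On differentiation in hypoxia Cdkn2c changed by -0.29 with both libraries, by 0.39 without DM_HYP A (adjusted p 0.00999) and by -0.97 without DM_HYP B (adjusted p 0.000722), so the direction was set by which library was kept.

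Cdkn2d was at 12.1 and 11.3 FPKM in GM_NOR, 11.8 and 11.9 in GM_HYP, 8.33 and 7.07 in DM_NOR, and 9.08 and 15 in DM_HYP A and B. DM_NOR was the lowest group and did not overlap the others. The difference from GM_NOR was -0.55 ± 0.21 (adjusted p 0.0533), and it passed in a fit of those 4 libraries by themselves (adjusted p 0.0084) or without DM_HYP A or B (adjusted p 0.0023 and 0.00238). Hypoxia in growth medium changed Cdkn2d by 0.02, with a 95% interval of -0.48 to 0.52. In differentiation medium the difference was 0.55 ± 0.21 (adjusted p 0.0536), and 0.88 without DM_HYP A (adjusted p 0.000822). The other INK4 genes, Cdkn2a and Cdkn2b, were listed at 0 in all 8 libraries. Cdkn3, a phosphatase of CDKs, was at 12.2 and 11.4 FPKM in GM_NOR and 0.89 and 1.6 in DM_NOR (-2.53 ± 0.59, adjusted p 0.00846; 0.062 without DM_NOR A), and at 1.82 and 10.5 in DM_HYP A and B.

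Rb1, which codes for the retinoblastoma protein, rose on differentiation in normoxia. It was at 4.33 and 5.08 FPKM in GM_NOR, 17.1 and 18.4 in DM_NOR, 9.99 and 7.75 in GM_HYP, and 7.81 and 12.8 in DM_HYP A and B. The levels ordered as for Cdkn1a, with GM_NOR lowest, DM_NOR highest and the hypoxic libraries between. DM_NOR was 3.78-fold above GM_NOR (1.72 ± 0.22, adjusted p 0.000552). In hypoxia the change was 0.17 ± 0.22 (95% interval -0.36 to 0.71, adjusted p 0.584), being 0.50 without DM_HYP A (adjusted p 0.0453) and -0.16 without DM_HYP B (adjusted p 0.481). The difference between these changes was -1.55 ± 0.32 (adjusted p 0.00627). Hypoxia raised Rb1 1.88-fold in growth medium (0.78 ± 0.22, adjusted p 0.0302) and lowered it in differentiation medium (-0.77 ± 0.22, adjusted p 0.021).

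Both hypoxia calls for Rb1 lay near the threshold. The rise in growth medium kept a change of 0.69, 0.88, 0.62 and 0.95 without GM_NOR A, GM_NOR B, GM_HYP A and GM_HYP B, but did not pass (adjusted p 0.141, 0.0731, 0.167 and 0.0598). Nor did it pass at the same 0.78 without DM_NOR A or B, which are outside the comparison (adjusted p 0.068 and 0.0681), or with no filter on low values (0.0533). The fall in differentiation medium was lost without DM_NOR A or B (-0.82 and -0.72, adjusted p 0.0784 and 0.11), without DM_HYP A (-0.44, adjusted p 0.0507), and in a fit of the DM_HYP and DM_NOR libraries by themselves (adjusted p 0.064).

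Rbl2, which codes for p130, the pocket protein typical of resting cells, moved opposite to Rb1 on differentiation in normoxia. It was at 22.7 and 25 FPKM in GM_NOR, 27.2 and 26.6 in GM_HYP, 11.7 and 12.2 in DM_NOR, and 20.7 and 20.9 in DM_HYP A and B. DM_NOR lay well below all other libraries, and the DM_HYP replicates agreed within 1.01-fold. Rbl2 was 1.99-fold higher in GM_NOR than in DM_NOR (-0.94 ± 0.08, adjusted p 8.25e-05) and 1.74-fold higher in DM_HYP than in DM_NOR (0.75 ± 0.08, adjusted p 0.000227). In hypoxia it fell by 0.36 ± 0.08 on differentiation (adjusted p 0.0136), a call lost without GM_HYP A (adjusted p 0.0871) or GM_HYP B (adjusted p 0.0717). The difference between the falls was 0.58 ± 0.11 (adjusted p 0.00533) and did not pass with median-of-ratios scaling (0.27, p 0.13 after adjustment) or upper-quartile scaling (0.36 and 0.0608).

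Rbl1, which codes for p107, the pocket protein typical of cycling cells, differed most between the DM_HYP replicates. It was at 4 and 5 FPKM in GM_NOR, 3.06 and 2.52 in GM_HYP, 2.04 and 2.17 in DM_NOR, and 2.09 and 6.87 in DM_HYP A and B. DM_HYP A was at the level of DM_NOR, and DM_HYP B above every other library. The change on differentiation in normoxia was -0.82 ± 0.39 (adjusted p 0.106), which passed in a fit of those 4 libraries by themselves (adjusted p 0.00302) or without DM_HYP A or B (adjusted p 0.00135 and 0.00134). On differentiation in hypoxia it was 0.38 ± 0.39 (adjusted p 0.477), 1.06 without A (adjusted p 0.00262) and -0.29 without B (adjusted p 0.167). Hypoxia changed Rbl1 by -0.54 ± 0.39 in growth medium (adjusted p 0.316; 0.0127 with either DM_HYP library left out) and by 0.67 ± 0.39 in differentiation medium (adjusted p 0.175; 0.000456 without DM_HYP A).

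The windows before the starts of Rbl1 and Rbl2 are shown because these relatives differed in what they held and in how they moved. Rbl1 lies on the minus strand at chr2:157204535-157204784 and Rbl2 on the plus strand at chr8:91069807-91070056 (GRCm38.p6, RefSeq), each read in the direction of its gene with motif matches in capitals.
Rbl1: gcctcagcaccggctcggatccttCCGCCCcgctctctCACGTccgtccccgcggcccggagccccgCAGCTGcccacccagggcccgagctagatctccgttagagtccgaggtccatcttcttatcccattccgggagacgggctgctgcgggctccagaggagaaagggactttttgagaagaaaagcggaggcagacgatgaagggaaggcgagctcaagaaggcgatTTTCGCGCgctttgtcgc
Rbl2: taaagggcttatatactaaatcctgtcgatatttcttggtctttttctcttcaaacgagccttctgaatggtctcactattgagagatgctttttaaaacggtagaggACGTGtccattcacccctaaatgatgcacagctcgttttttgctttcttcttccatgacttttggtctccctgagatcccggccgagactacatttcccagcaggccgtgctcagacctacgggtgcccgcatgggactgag
Rbl1 held an E2F spelling, TTTCGCGC, 18 bases before its start, and it was the single window of the 10 found for these genes with one. It also held the E-box CAGCTG, a GC box and the hypoxia core, the latter 212 bases before the start. Rbl2 held the hypoxia core alone, 142 bases before the start. A match describes these letters and not a bound site.

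The make-up of the pocket protein family shifted on normoxic differentiation while its summed levels overlapped. The sum was 31 and 35.1 FPKM in GM_NOR, 40.3 and 36.9 in GM_HYP, 30.9 and 32.8 in DM_NOR, and 30.6 and 40.5 in DM_HYP. Rb1 supplied 14% and 14.5% of it in GM_NOR and 55.4% and 56.1% in DM_NOR, whereas Rbl2 went from 73.1% and 71.3% to 38% and 37.2%. In GM_HYP Rb1 supplied 24.8% and 21%, and in DM_HYP 25.5% and 31.6%. Rbl1 supplied 6.81% in DM_HYP A and 16.9% in DM_HYP B. No test was made of these shares.

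Partners of the pocket proteins were listed as E2F and DP factors and as subunits of the DREAM complex, which holds cell cycle genes off in resting cells. Of 10 E2F and DP genes, 2 rose and 3 fell on differentiation in normoxia, beside 25.5% and 41.0% of all genes. With hypoxia in growth medium 1 rose and 4 fell, beside 13.5% and 28.0% of all genes. The counts in normoxia rose with DM_HYP A or B left out, and those for hypoxia fell without any 1 of the 4 growth medium libraries. Both shares of all genes moved in the same directions. E2f2 had the pattern of Cdkn1a in normoxia, with 7.24 and 6.83 FPKM in GM_NOR and 62.4 and 65.7 in DM_NOR (3.02 ± 0.32, adjusted p 0.000198), but was at 1.24 and 1.28 in GM_HYP and 0.67 and 2.58 in DM_HYP. E2f4, which acts mainly with p107 and p130 in resting cells, rose on differentiation in normoxia (1.00 ± 0.15, adjusted p 0.00118) from 20.5 and 17.9 to 40.8 and 37.9 FPKM. Of 6 DREAM subunits 1 was called higher on differentiation in normoxia, beside 25.5% of all genes. This was Rbbp4, whose level ran from 34.5 to 60.4 FPKM over the 8 libraries. The call was lost without GM_NOR B, DM_NOR A or DM_NOR B, and more subunits were called with DM_HYP A or B left out. Both shares of all genes moved in the same directions.

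Ccnd3 was the main D-type cyclin in every library and rose on normoxic differentiation. It was at 82.1 and 64.5 FPKM in GM_NOR, 318 and 309 in DM_NOR, 57.2 and 60.6 in GM_HYP, and 85 and 91.5 in DM_HYP A and B. DM_NOR was far above the rest, and the DM_HYP replicates lay within 1.08-fold. The mean was 4.27-fold higher in DM_NOR than in GM_NOR (2.09 ± 0.12, adjusted p 1.44e-05) and 3.55-fold higher than in DM_HYP (-1.82 ± 0.12 for hypoxia in differentiation medium, adjusted p 2.41e-05). In hypoxia Ccnd3 rose 1.5-fold on differentiation (0.57 ± 0.12, adjusted p 0.01), a call lost without GM_HYP A (adjusted p 0.069) or GM_HYP B (adjusted p 0.0504). The differentiation change was 1.52 ± 0.17 lower in hypoxia (adjusted p 0.000483). Hypoxia in growth medium changed Ccnd3 by -0.30 ± 0.12 (adjusted p 0.084), and by -0.47 without GM_NOR B (adjusted p 0.0128).

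RefSeq gives 2 starts for Ccnd3 on the plus strand of chromosome 17, with windows at chr17:47504801-47505050 and chr17:47593217-47593466 (GRCm38.p6), shown for comparison with Cdkn1a.
Ccnd3, start 1: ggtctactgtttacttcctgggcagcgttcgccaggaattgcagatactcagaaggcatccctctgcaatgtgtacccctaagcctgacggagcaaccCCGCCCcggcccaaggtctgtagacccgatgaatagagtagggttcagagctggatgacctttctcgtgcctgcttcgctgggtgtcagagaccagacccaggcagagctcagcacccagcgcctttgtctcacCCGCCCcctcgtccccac
Ccnd3, start 2: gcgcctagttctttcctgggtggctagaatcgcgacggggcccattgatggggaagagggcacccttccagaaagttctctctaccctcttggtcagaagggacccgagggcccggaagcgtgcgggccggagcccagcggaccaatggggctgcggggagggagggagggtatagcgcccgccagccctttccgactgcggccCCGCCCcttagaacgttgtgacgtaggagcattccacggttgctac
The capitals are GC boxes on the other strand, 152 and 18 bases before start 1 and 46 bases before start 2. Neither window held an E-box, an E2F spelling or the hypoxia core as spelled above. Windows were found for 7 of the 10 genes, 10 windows in all, of which 7 held a GC box, 3 the hypoxia core, 2 an E-box and 1 an E2F spelling. Windows of Rb1, Ccnd1 and Ccnd2 were not analysed here.

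Ccnd1, the cyclin most tied to growth factor signals, fell on differentiation in normoxia, where Ccnd3 rose. It was at 30.5 and 31.7 FPKM in GM_NOR, 19.5 and 18.6 in GM_HYP, 13.2 and 11.5 in DM_NOR, and 11.9 and 24.8 in DM_HYP A and B. DM_HYP A was at the level of DM_NOR and DM_HYP B above GM_HYP. Ccnd1 was 2.52-fold higher in GM_NOR than in DM_NOR (-1.27 ± 0.29, adjusted p 0.00746; 0.056 without DM_NOR B). With hypoxia in growth medium the change was -0.68 ± 0.29 (adjusted p 0.104), which passed in a fit of those 4 libraries by themselves (adjusted p 0.00364) or without DM_HYP A or B (0.00121 and 0.00123). On differentiation in hypoxia Ccnd1 changed by -0.14, by 0.36 without DM_HYP A (adjusted p 0.028) and by -0.64 without DM_HYP B (adjusted p 0.00513). Hypoxia in differentiation medium changed it by 0.45 ± 0.29 (adjusted p 0.205), by 0.95 without DM_HYP A (adjusted p 0.00037) and by -0.05 without DM_HYP B (adjusted p 0.715).

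Ccnd2 was the least abundant of the 3 and split the libraries into GM_NOR and all others. It was at 0.67 and 0.62 FPKM in GM_NOR, 2.98 and 2.73 in GM_HYP, 2.49 and 2.67 in DM_NOR, and 2.77 and 2.87 in DM_HYP A and B. Every other library was thus above GM_NOR, and the other 3 groups lay close together. Differentiation in normoxia raised Ccnd2 4.01-fold (1.12 ± 0.09, adjusted p 7.49e-05) and hypoxia in growth medium 4.44-fold (1.23 ± 0.09, adjusted p 0.000217). On top of hypoxia, differentiation medium changed it by -0.01, with a 95% interval of -0.24 to 0.21, and the differentiation change was 1.14 ± 0.13 lower in hypoxia (adjusted p 0.000618). The pseudocount of 1 shrinks changes at this level, and with 0.1 the 2 rises were 1.85 and 1.99.

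The D-type cyclins together held 113 and 96.8 FPKM in GM_NOR, 79.8 and 81.9 in GM_HYP, 333 and 323 in DM_NOR, and 99.6 and 119 in DM_HYP. Ccnd3 supplied 72.5% and 66.6% of this in GM_NOR, 71.8% and 74% in GM_HYP, 95.3% and 95.6% in DM_NOR, and 85.3% and 76.8% in DM_HYP. The ratio of Ccnd3 to Ccnd1 was 2.69 and 2.03 in GM_NOR, 24.1 and 26.9 in DM_NOR, and 7.15 and 3.69 in DM_HYP A and B. Set against the D cyclins as a whole, Cdkn1a was at a ratio of 0.568 and 0.571 in GM_NOR and of 3.04 and 2.94 in GM_HYP, 2.84 and 3.04 in DM_NOR, and 2.58 and 3.05 in DM_HYP. The 6 libraries outside GM_NOR thus had ratios of FPKM from 2.58 to 3.05 although Cdkn1a itself ranged from 241 to 984 FPKM among them. This ratio was examined after its values were seen and was not tested.

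**Figure D3:**
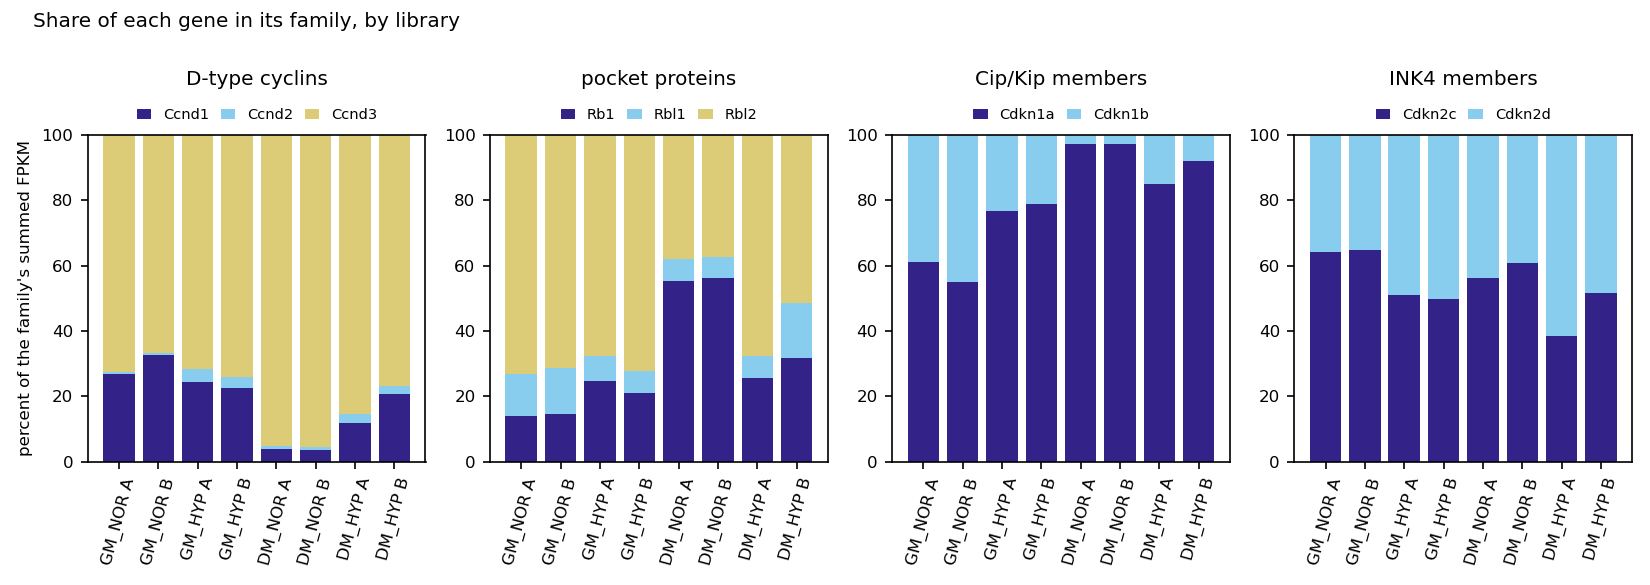
Share of each gene in the summed FPKM of its family (vertical axis, percent) in each library, for D-type cyclins, pocket proteins, Cip/Kip and INK4 members. The sums hold the 10 genes alone, so Cdkn1c, a Cip/Kip gene at 88 and 105 FPKM in DM_NOR, is left out. Ccnd3 reaches 95.3% and 95.6% and Cdkn1a 97.2% in DM_NOR, where Rb1 overtakes Rbl2.

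The kinase genes Cdk4, Cdk6 and Cdk2, the E- and A-type cyclins Ccne1, Ccne2 and Ccna2, and Cdc25a were listed as 7 genes. On differentiation in normoxia 2 fell and none rose (0 higher at an unadjusted p under 0.05), beside 41.0% and 25.5% of all genes. Their median change was -0.79 beside -0.20 for all genes. More of the 7 were called with DM_HYP A or B left out, and fewer without any of GM_NOR A, GM_NOR B, DM_NOR A and DM_NOR B. Both shares of all genes moved in the same directions. Cdk4, the main partner of D cyclins, was at 270 and 233 FPKM in GM_NOR, 102 and 104 in DM_NOR, 148 and 150 in GM_HYP, and 230 and 235 in DM_HYP A and B. It fell on differentiation in normoxia (-1.28 ± 0.09, adjusted p 2.86e-05) and rose in hypoxia (0.64 ± 0.09, adjusted p 0.00209). Cdk4 was the reverse of Ccnd3 here, since DM_HYP was 1.17 ± 0.09 above DM_NOR on the log2 scale (adjusted p 4.03e-05), with DM_HYP A and B alike. Ccna2, the cyclin of S and G2 phase, was at 33.7 and 36.6 FPKM in GM_NOR, 6.49 and 6.6 in DM_NOR, and 4.31 and 28.9 in DM_HYP A and B.

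Genes that E2F switches on for S phase lie downstream of the pocket proteins, whose phosphorylation was not measured here. Of 14 such genes 6 fell and none rose on differentiation in normoxia (0 higher at an unadjusted p under 0.05). Over all genes 41.0% were called lower and 25.5% higher there. More of the list were called lower with DM_HYP A or DM_HYP B left out, and fewer with any other library left out. The share of all genes called lower moved in the same directions. With hypoxia in growth medium none was called in limma's test (0 at an unadjusted p under 0.05), beside 28.0% of all genes called lower and 13.5% higher. Without DM_HYP A or DM_HYP B some of the list were called lower, and the share of all genes called lower rose too. The list summed to 331 and 311 FPKM in GM_NOR, 223 and 209 in GM_HYP, 145 and 153 in DM_NOR, and 199 and 536 in DM_HYP A and B. DM_HYP B was above every other library and DM_HYP A between DM_NOR and GM_HYP. On differentiation in hypoxia the counts were 1 higher and 0 lower (0 lower at an unadjusted p under 0.05), beside 23.3% and 17.6% of all genes. More of the list were called higher without DM_HYP A, and more were called lower without DM_HYP B. The single call was lost without GM_HYP A or GM_HYP B. Tk1, thymidine kinase, was at 47.5 and 39.4 FPKM in GM_NOR, 3.96 and 5.17 in DM_NOR, and 6.11 and 37.7 in DM_HYP. Pcna, the sliding clamp of DNA replication, was higher in both DM_HYP libraries (90.4 and 157 FPKM) than in DM_NOR (48.4 and 51.5; 1.24 ± 0.23, adjusted p 0.00284).

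**Figure D4:**
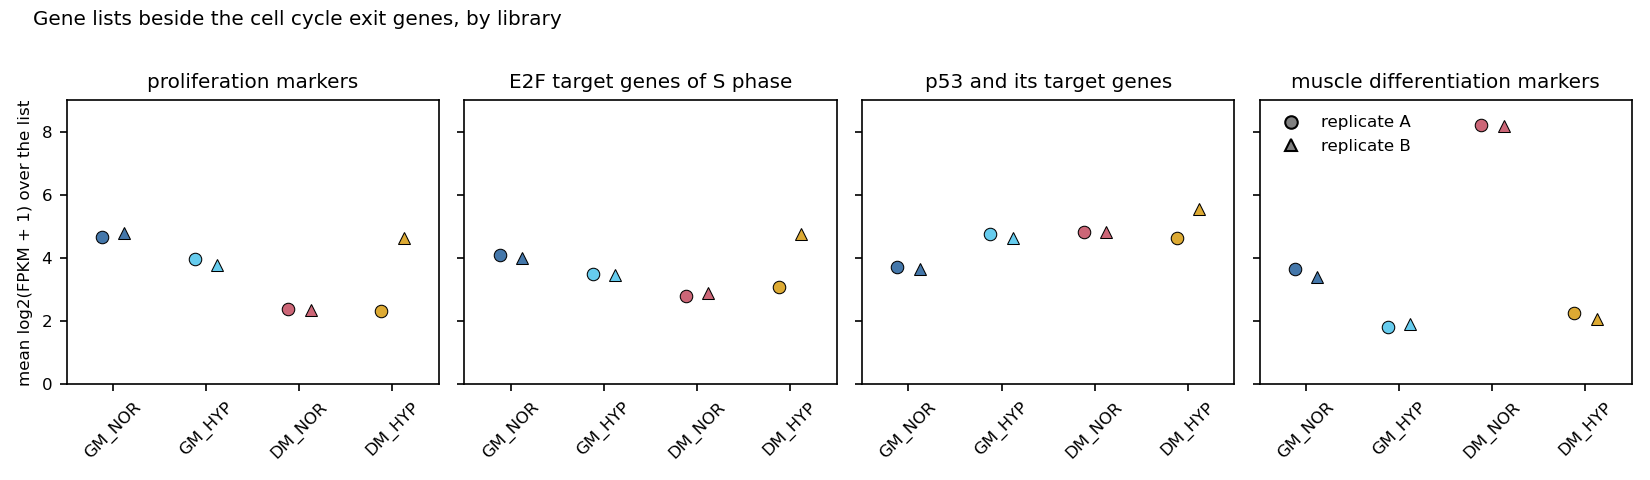
Mean of log2(FPKM + 1) over 4 gene lists (vertical axis) in each library, with circles for replicate A and triangles for replicate B. Proliferation markers and E2F targets separate DM_HYP A from B, whereas the muscle markers are high in DM_NOR alone.

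Within DM_HYP the 10 genes fell into those that differed between A and B and those that did not. The ratio of B to A was 3.29 for Rbl1, 2.83 for Cdkn2c, 2.08 for Ccnd1, 1.65 for Cdkn2d, 1.64 for Rb1 and 1.42 for Cdkn1a. It was 1.08 for Ccnd3, 1.04 for Ccnd2 and 1.01 for Rbl2, and 0.687 for Cdkn1b. In all, 9 of the 10 genes were higher in B, beside 63.2% of all tested genes. In the other groups the ratios of the 10 genes ran from 0.776 for Rb1 in GM_HYP to 1.25 for Rbl1 in GM_NOR. There 5, 2 and 7 genes were higher in B in GM_NOR, GM_HYP and DM_NOR, beside 44.3%, 50.7% and 47.8% of all tested genes. DM_HYP A, the library with few proliferation transcripts, had Rbl1, Ccnd1 and Cdkn2c at or below their levels in DM_NOR, but held Cdkn1a at 257 against 947 FPKM, Ccnd3 at 85 against 318 and Rb1 at 7.81 against 17.1 in DM_NOR A. The low levels of Cdkn1a and Ccnd3 relative to DM_NOR were thus present in both DM_HYP libraries.

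**Figure D5:**
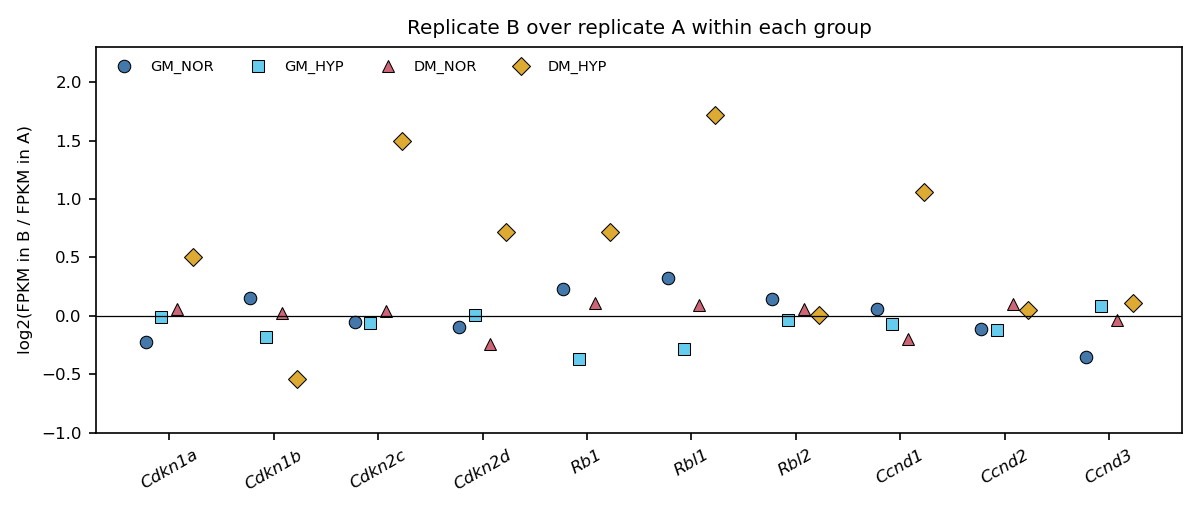
Log2 of FPKM in replicate B over that in replicate A (vertical axis) for each gene, by group. DM_HYP (diamonds) lies farthest from 0 for Rbl1, Cdkn2c and Ccnd1, with ratios of 3.29, 2.83 and 2.08, and close to 0 for Rbl2, Ccnd2 and Ccnd3.

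The difference between the differentiation changes (the change in hypoxia minus that in normoxia) was called for 5 of the 10 genes. It was negative for Cdkn1a, Rb1, Ccnd2 and Ccnd3 and positive for Rbl2, beside 18.7% of all genes called negative and 35.4% called positive. Of all these calls 65.5% were positive, against 47.7% after median-of-ratios and 53.8% after upper-quartile scaling, which moved the median of all genes from 0.27 to -0.01 and 0.07. The positive call for Rbl2 was lost under both, as given above. Ccnd1 had a difference of 1.13 ± 0.41 that did not pass (adjusted p 0.0535), and did without DM_HYP A (1.63, adjusted p 0.000183) or B (0.63, adjusted p 0.0081). Without DM_HYP A or DM_HYP B more of the 10 genes were called, and both shares over all genes rose too.

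The order of the 10 levels, on the FPKM scale, which is per length, also differed between groups. Overlap here means that the ranges spanned by A and B overlapped. In GM_NOR it ran Ccnd3, Cdkn1a, Cdkn1b, Ccnd1, Rbl2, Cdkn2c, Cdkn2d, Rb1, Rbl1 and Ccnd2, with Rb1 and Rbl1 overlapping. Rb1 was slightly above Rbl1 within each GM_NOR library. In GM_HYP Cdkn1a led, followed by Cdkn1b and Ccnd3, and 2 neighbouring pairs overlapped (Cdkn2c with Cdkn2d, Ccnd2 with Rbl1). In DM_NOR Cdkn1a and Ccnd3 led, Cdkn1b followed at 27.6 ± 0.36 FPKM (SD, n = 2), Rb1 had moved to the fourth place at 17.8 ± 0.92 (SD, n = 2), and Ccnd1 and Rbl2 overlapped. In DM_HYP Cdkn1a, Ccnd3 and Cdkn1b led without overlap. Below them Ccnd1 overlapped Rbl2, Cdkn2d, Cdkn2c and Rb1, and the last 3 of these overlapped each other but lay below Rbl2 in both libraries. Within each DM_HYP library Ccnd1 was above Cdkn2d, Cdkn2c and Rb1, and Cdkn2d was above Rb1. Rbl1 overlapped Ccnd2 in last place.

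For each gene, the 2 genes outside the 10 with the most similar profile were found by Pearson's r of log2(FPKM + 1) over the 8 libraries, among 9654 candidates. These r values describe profiles whose points share groups of 2, and the highest of many candidates is high by choice. Closest to Cdkn1a were Yars (r 0.992) and Ppp1r15a (0.99), and closest to Cdkn1b were Cpq (0.99) and Luc7l2 (0.979). Cdkn2c was closest to Cdca7 (0.983) and Piezo1 (0.977), and Cdkn2d to Ethe1 (0.984) and Dcaf4 (0.983). Rb1 was closest to Tob1 (0.992) and R3hdm1 (0.984), Rbl1 to Diap3 (0.992) and Tyms (0.988), and Rbl2 to BC023829 (0.997) and Cpne1 (0.995). Ccnd1 was closest to Lmnb1 (0.996) and Cdk1 (0.991), Ccnd2 to Hk2 (0.989) and Gys1 (0.987), and Ccnd3 to Diablo and Clpb (both 0.997). Tyms and Cdk1 are also in the lists of E2F targets and proliferation markers.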

How the data were processed

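The authors deposited 1 table of FPKM values per gene for 8 RNA-seq libraries of C2C12 cells, 2 per group. The submitters' processing notes name STAR 2.5.1b, Cufflinks 2.2.1 and the build mm9. The annotation, strand setting and scaling are not given in the sources used here, so reads from overlapping or antisense genes cannot be told apart. FPKM are not counts, so no count model or counting interval was used.

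Changes were fitted with limma 3.58.1 (R 4.3.3) and an intensity trend on log2(FPKM + 1), over 8 libraries and 4 group means (4 residual degrees of freedom). Genes needed a group mean of 1 FPKM or more (12389 of 17914 above 0). P-values were adjusted by Benjamini-Hochberg over all tested genes, at 0.05, and measure the spread between these libraries, since the labels do not say what was separate between replicates. An exact permutation test of 2 against 2 cannot go below 0.333 and was not used. The main fit did not pair libraries by replicate letter. A minus B correlated between groups at r from -0.166 to 0.042, which cannot show whether libraries of the same letter were made together.

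The 10 genes and the lists were chosen with earlier results of these data known. List genes named with changes are from the 4 with the highest mean of each list, not all of which are named. Exceptions are genes said to be chosen later and markers of other cell types, named for being high, or at or near 0. Alternatives were a pseudocount of 0.1, no filter, 2 scalings, fits of the compared libraries by themselves, array quality weights, replicate blocks, and leaving out each library, where a lone library is assumed to vary like the others. Upstream windows are from RefSeq, GRCm38.p6.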

Additional observations from a re-analysis of the deposited data

Results flagged for a closer look

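In 5 of the 10 genes the change on differentiation differed between oxygen levels by the test of that difference, fitted with limma. For Cdkn1a the change in hypoxia minus that in normoxia was -3.65 (log2, adjusted p 5.18e-05), with fitted changes of 0.34 and 3.99. For Ccnd3 it was -1.52 (adjusted p 0.000483), with changes of 0.57 and 2.09, and for Ccnd2 -1.14 (adjusted p 0.000618), with changes of -0.01 and 1.12. For Rb1 it was -1.55 (adjusted p 0.00627), and 35.4% of all tested genes were called in the positive and 18.7% in the negative direction. For Rbl2 it was 0.578 (adjusted p 0.00533), a call that was lost with median-of-ratios scaling (0.27) and upper-quartile scaling (0.36). The negative differences of Cdkn1a, Rb1, Ccnd2 and Ccnd3 were called with either DM_HYP library left out.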

How the results depend on the processing

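Over 790 refits of single genes of the 10, 700 kept direction and side of the threshold, 29 lost a call, 47 gained one and 14 turned direction. The cause was not tested. The number of the 10 genes called (7, 3, 4, 4 and 5 for the comparisons in the order given, the difference last) was the same in every comparison with a replicate block. For hypoxia in growth medium 7 were called when the compared libraries were fitted by themselves and 7 with array quality weights. Leaving out 1 library gave 5 to 10 for differentiation in normoxia, 0 to 8 in hypoxia, 2 to 7 for hypoxia in growth medium, 3 to 7 in differentiation medium and 5 to 10 for the difference. Whether libraries of the same letter belong together is not known. A block with the letters of GM_HYP crossed, added after seeing the data, gave 7, 3, 4, 4 and 5. The shares of all genes called also moved when 1 library was left out. Uncalled changes turned sign in such fits. On differentiation in hypoxia the ranges were -0.969 to 0.385 for Cdkn2c, -0.35 to 0.313 for Cdkn2d, -0.155 to 0.495 for Rb1, -0.292 to 1.06 for Rbl1, -0.638 to 0.362 for Ccnd1 and -0.0591 to 0.0333 for Ccnd2. For hypoxia in differentiation medium they were -0.829 to 0.525 for Cdkn2c, -0.00795 to 1.34 for Rbl1 and -0.0459 to 0.954 for Ccnd1. For hypoxia in growth medium Cdkn2d ran from -0.0234 to 0.0648, and for the difference Cdkn1b ran from -0.518 to 0.00834 and Cdkn2c from -0.0752 to 1.28. Median-of-ratios scaling turned Ccnd2 for hypoxia in differentiation medium (-0.0592). Depth limits low genes most, among them Ccnd2.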

Other observations

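Genes of the p53 list did not share 1 profile, and the following were chosen after their values were seen. Eda2r, a receptor of the TNF family, had the profile of Cdkn1a with 2.74 and 3.74 FPKM in GM_NOR, 77 and 79.1 in DM_NOR, 12.1 and 9.25 in GM_HYP, and 11.7 and 19.4 in DM_HYP A and B. Aen, a nuclease, was at 6.72 and 5.29 FPKM in GM_NOR, 43.1 and 44.2 in DM_NOR, 13.5 and 12.7 in GM_HYP, and 15.5 and 41.1 in DM_HYP. Others were highest in hypoxia. Ccng1, cyclin G1, was at 14.4 and 16.3 FPKM in GM_NOR, 17.8 and 18.9 in DM_NOR, 58.2 and 46.1 in GM_HYP, and 66.2 and 146 in DM_HYP. Mdm2, which codes for the ligase that degrades p53, was at 16 and 17.7 FPKM in GM_NOR, 28.1 and 28 in DM_NOR, 50.9 and 47 in GM_HYP, and 49.2 and 99.2 in DM_HYP. All 4 genes were higher in DM_HYP B than in DM_HYP A, as was Cdkn1a. No test of the split was made.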
